A study of Mus musculus with 13 samples.

Results

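Knockout of P2X7 was compared with the wild type in the visceral fat of mice fed a high-fat diet, using 7 arrays (3 wild-type and 4 knockout) of the 13 in the series. All 18820 genes read by a probe set that names a single gene were included. The tissue was epididymal white adipose tissue, the fat pad beside the testis, taken from male mice aged 18 weeks. The wild-type group was strain C57Bl/6, and the knockout group was B6.129P2-P2rx7tm1Gab/J (P2X7-/-), bred from purchased stock after backcrossing to the B6 background for 7 generations. The mice entered the diets at 6 weeks of age and ate for 12 weeks either the high-fat diet, with 60% of its energy as fat, or chow, with 13%. The chow groups, with 3 arrays for each genotype, served as the lean comparison and shared no array with the high-fat comparison. Each array took 100 ng of total RNA. The labels do not tie each array to a separate mouse, so the spread behind the p-values is that between samples and may be technical in part.

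P2X7, encoded by P2rx7, is an ion channel in the membrane of macrophages and other leukocytes that opens when ATP leaks from stressed or dying cells. In macrophages its opening lets potassium out of the cell, a known trigger of the NLRP3 inflammasome, in which the adaptor ASC (Pycard) joins the sensor Nlrp3 to caspase-1 (Casp1) so that the cytokines interleukin-1 beta and interleukin-18 are cut to their active forms. Fat of obese mice holds many macrophages, and the title of the series concerns the role of this ATP route in the inflammasome there. Arrays measure the RNA of these genes and not the cutting of the proteins.

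The deposited, RMA-processed values of the comparison were close in scale. Median log2 values over the genes tested lay between 6.63 and 6.69 in the 7 high-fat arrays, with a difference of -0.00098 between knockout and wild type (two-sided exact permutation p = 0.971). With 3 and 4 processed arrays this test cannot show that the samples were alike before processing. Wild-type replicate 2 stood apart from its group. It correlated across genes at r = 0.993 with the other wild-type high-fat arrays, which correlated with each other at 0.995. With the knockout high-fat arrays it correlated at 0.994 to 0.997, and wild-type replicates 1 and 3 did so at 0.993 to 0.996. On the first principal component of the high-fat arrays (34.9% of their variance) wild-type replicate 2 lay at 18.65. Wild-type replicates 1 and 3 lay at -17.75 and -15.77 and the knockout arrays between -4.3 and 15.41. In wild-type replicate 2 the mean over 18 liver-rich transcripts was 7.32, against 5.38 to 6.34 in the other high-fat arrays. With the mean of these transcripts as a covariate, 3 genes passed as higher and 11 as lower in the knockout, against 2 and 6 without it. The source of the liver-rich transcripts was not tested. The defining adipocyte transcripts Adipoq and Fabp4 read from 11.61 to 12.01 and from 12.20 to 12.47 in the 7 high-fat arrays.

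P2rx7 itself (Entrez 18439) was read on high-fat diet at 9.54, 9.36 and 9.70 in wild-type fat and at 8.90, 9.14, 9.14 and 9.07 in knockout fat. Every knockout array was below every wild-type array. The log2 difference, knockout minus wild type as throughout, was -0.47 ± 0.12 (SE; limma adjusted p = 0.464), with a 95% interval of -0.74 to -0.21. It did not pass the threshold, a Benjamini-Hochberg adjusted p of 0.05 over all genes. On chow P2rx7 read 8.32, 7.91 and 8.41 in wild type and 8.23, 7.90 and 8.04 in knockout, so the groups overlapped. Whether its probe set lies inside or outside the disrupted part of P2rx7 was not known, and the P2rx7 level is therefore no check of the genotype labels. In whole tissue, fewer cells of a type and less RNA per cell cannot be told apart, for P2rx7 and for every gene below.

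Of the genes tested, 8 differed between knockout and wild-type fat on high-fat diet. Camk2b and Olfr734 were higher in the knockout, which is 0.0106% of the genes, and Lrmda, Gdf3, Mid1, Entpd4, Nipsnap2 and A430033K04Rik were lower, which is 0.0319%. Over all genes the median difference was -0.01, and 70 genes were at least 1.5-fold higher and 68 at least 1.5-fold lower whether or not they passed. At an unadjusted p under 0.05, 498 genes were higher and 896 lower. The groups did not overlap for 453 genes that were higher in the knockout (2.41%) and 804 that were lower (4.27%). The number of genes called turned on single arrays. Without wild-type high-fat replicate 2, 63 genes were higher and 114 lower. The count of higher genes was 7 without wild-type high-fat replicate 3, and 1 without wild-type high-fat replicate 1, without any of the wild-type chow replicates, or without knockout chow replicate 2 or 3.

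Among the 8 genes that passed, the largest difference was that of Lrmda, a leucine-rich repeat gene known for its part in melanocyte differentiation. Lrmda on high-fat diet read 8.07, 8.51 and 9.05 in wild type and 6.43, 6.14, 6.13 and 6.05 in knockout. The knockout arrays lay far below all wild-type arrays and close to each other. The difference was -2.36 ± 0.24, a 5.13-fold lower level (adjusted p = 0.00369). On chow Lrmda differed by -2.42 ± 0.25 (adjusted p = 0.00298), from 9.44, 9.43 and 8.48 in wild type to 6.87, 6.60 and 6.61 in knockout.

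Gdf3, a ligand of the TGF-beta superfamily that fat-tissue macrophages make and that acts on adipocytes through the receptor ALK7, was 4.84-fold lower in the knockout. Gdf3 read 8.13, 7.85 and 9.22 in wild-type fat and 5.98, 6.29, 5.99 and 6.24 in knockout fat on high-fat diet, a difference of -2.28 ± 0.29 (adjusted p = 0.00927). The lowest wild-type array was still well above the highest knockout array. On chow the Gdf3 groups overlapped, at 4.82, 4.44 and 5.24 in wild type and 5.07, 4.29 and 4.58 in knockout, with a difference of -0.18 ± 0.31 (adjusted p = 0.895). High-fat diet minus chow came to 3.57 ± 0.31 for Gdf3 in wild-type mice and to 1.48 ± 0.29 in knockout mice, values that share arrays with the genotype differences. The interaction, the genotype difference on high-fat diet minus that on chow, was -2.09 ± 0.42 for Gdf3, with a 95% interval for this gene alone of -3.00 to -1.18, and did not pass over all genes (adjusted p = 0.251). Gdf3 was named for its high-fat difference, which is part of the interaction, so the interval is not independent of that choice.

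Mid1, an X-linked ubiquitin ligase bound to microtubules, read 9.28, 9.16 and 9.58 in wild type and 8.39, 8.60, 8.49 and 8.30 in knockout on high-fat diet. The groups were separate, and Mid1 was lower by 0.90 on the log2 scale (-0.90 ± 0.10, adjusted p = 0.00474). Its difference on chow, -0.53 ± 0.11, did not pass (adjusted p = 0.117), although the chow groups did not overlap. Entpd4 encodes an enzyme of the Golgi and lysosome that removes phosphates from nucleotides such as UDP. On high-fat diet Entpd4 read 10.33, 10.17 and 10.42 in wild type and 9.74, 9.72, 9.68 and 9.53 in knockout, a difference of -0.64 ± 0.08 (adjusted p = 0.00772). On chow it differed by nearly the same amount, -0.59 ± 0.08 (adjusted p = 0.0222). The RefSeq table lists a neighbouring copy, Entpd4b, from which the probe set of Entpd4 may not be distinct.

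Nipsnap2, a mitochondrial protein that marks damaged mitochondria for removal, read 9.45, 9.54 and 9.52 in wild type and 9.11, 9.01, 9.14 and 9.06 in knockout on high-fat diet. The difference was small, -0.42 ± 0.06, and clear of the spread (adjusted p = 0.0163). On chow it was -0.72 ± 0.06 (adjusted p = 0.000472), and the change between the diets did not pass (interaction 0.30 ± 0.08, adjusted p = 0.342). A430033K04Rik, a predicted gene, lies outside the naming rule and is given because it passed. It read 7.32, 7.31 and 7.26 in wild type and 6.62, 6.46, 6.57 and 6.60 in knockout on high-fat diet, a difference of -0.73 ± 0.10 (adjusted p = 0.0175), and differed by -0.76 ± 0.11 on chow (adjusted p = 0.0222).

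Camk2b, the beta subunit of the calcium- and calmodulin-dependent kinase CaMKII, read 5.68, 5.83 and 5.50 in wild type and 6.51, 6.53, 6.60 and 6.54 in knockout on high-fat diet. The knockout arrays sat within a narrow band above all wild-type arrays. Camk2b was higher by 0.88 ± 0.09, or 1.83-fold (adjusted p = 0.00412), and its chow difference of 0.48 ± 0.10 did not pass (adjusted p = 0.137). Olfr734, an olfactory receptor gene that also lies outside the naming rule, read 3.78, 3.85 and 4.00 in wild type and 4.87, 4.66, 4.48 and 5.28 in knockout. Its difference of 0.95 ± 0.15 just passed (adjusted p = 0.0474), and on chow it was -0.13 ± 0.16 (adjusted p = 0.832). Of the Olfr genes beside it on chromosome 14, Olfr731 differed by 1.07 ± 0.18, Olfr733 by 0.69 ± 0.13 and Olfr735 by 0.63 ± 0.15, none of which passed. Probe sets of this large family can share sequence.

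**Figure D1:**
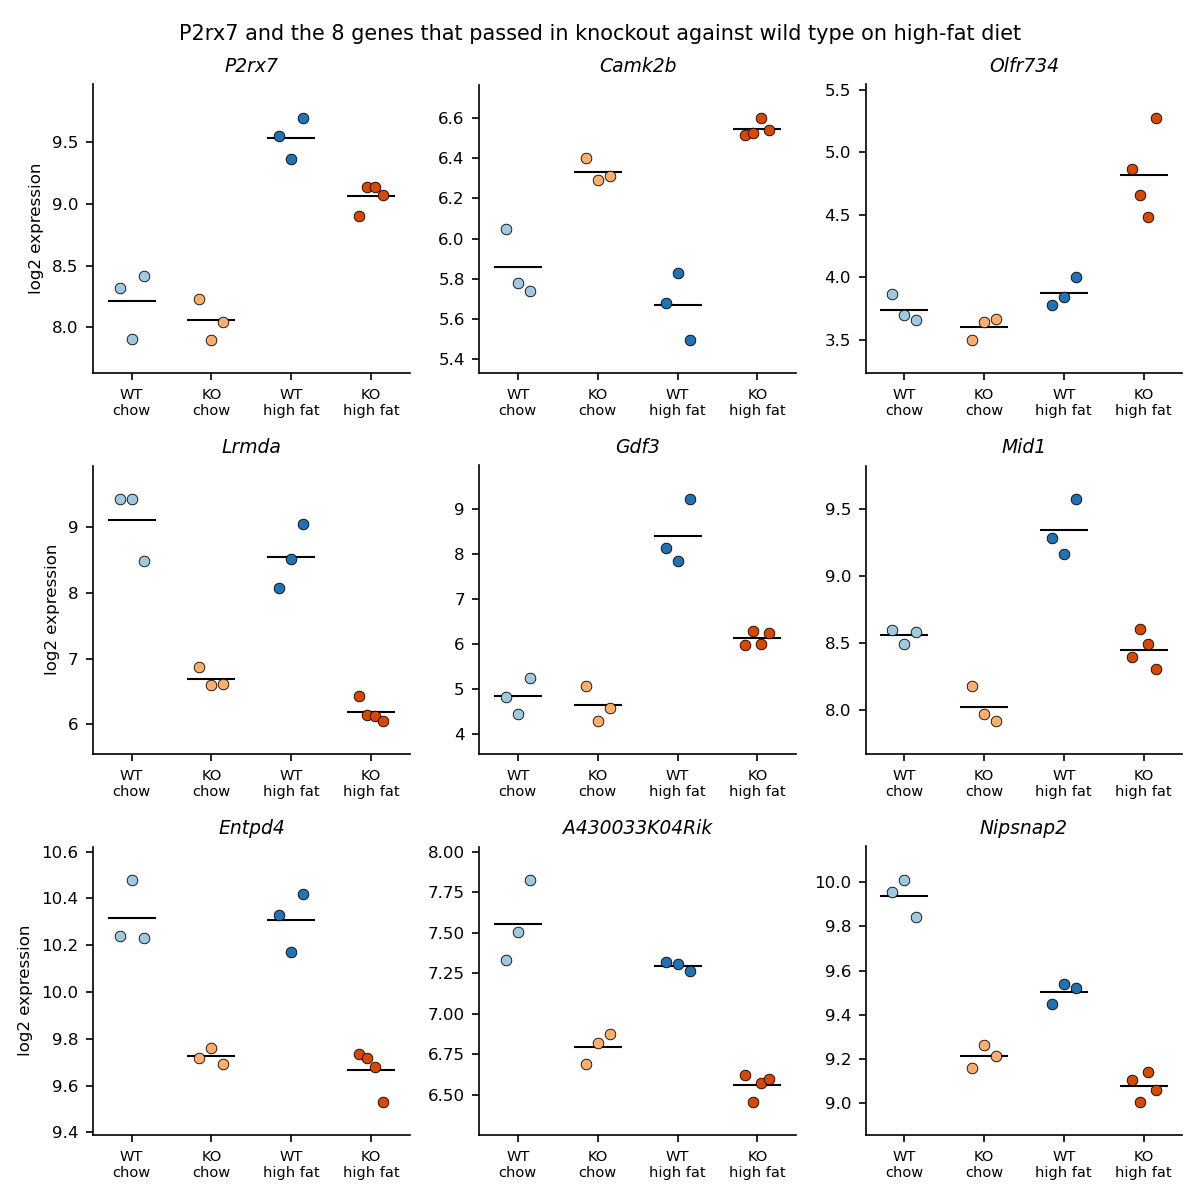
Log2 expression (vertical axis, a separate range for each gene) of P2rx7 and the 8 genes that passed on high-fat diet, by group; points are arrays (3 per group, 4 for knockout on high-fat diet) and lines are group means. All 8 genes separate the genotypes on high-fat diet without overlap, and Gdf3 and Olfr734 overlap on chow.

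Leaving out each of the 13 arrays in turn, Camk2b, Lrmda, Gdf3, Mid1 and Entpd4 passed all 13 times. Nipsnap2 passed 10 times, A430033K04Rik 9 times and Olfr734 3 times. The replicate number in the labels, used as a block, left 0 genes called. Whether the numbers pair the samples was not known.

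The chow arrays gave an independent view of the same genotype contrast, apart from the spread, which was estimated from all arrays. On chow 9 genes were higher in the knockout (0.0478%) and 16 lower (0.085%). Lrmda, Entpd4, Nipsnap2 and A430033K04Rik passed on both diets, which is 4 of the 8 genes called on high-fat diet (50%) and 4 of the 25 called on chow (16%). The sign was the same on chow for 7 of the 8, all but Olfr734. Conversely, 17 of the 25 genes called on chow had the same sign on high-fat diet. The test of the difference itself, the interaction, called 0 genes with limma at an adjusted p of 0.05, with a smallest adjusted p of 0.0783 and 1829 genes at an unadjusted p under 0.05. Without wild-type high-fat replicate 2 the interaction called 106 genes. The mean of the liver-rich transcripts was 7.98, 7.35 and 7.03 in the wild-type and 5.93, 5.99 and 6.00 in the knockout arrays on chow. The chow calls with this mean as a covariate are not given here.

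**Figure D2:**
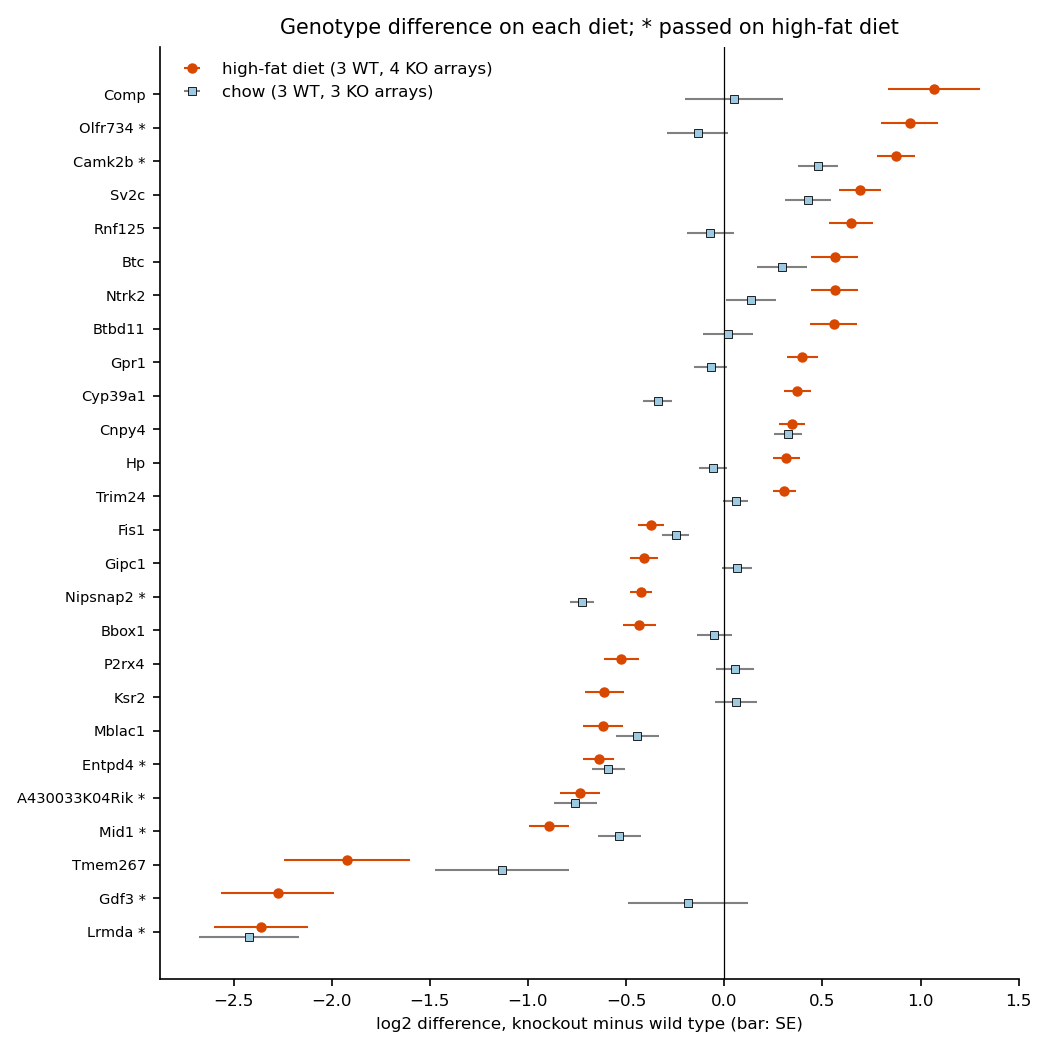
Log2 difference between knockout and wild type (horizontal axis; bars are SE from limma) on high-fat diet and on chow for the 8 genes that passed on high-fat diet, marked by a star, and 18 named genes that did not pass but whose groups do not overlap. Lrmda, Entpd4, A430033K04Rik and Cnpy4 lie at nearly the same place on both diets, while Gdf3, P2rx4 and Ksr2 lie near 0 on chow.

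Named genes that fell short of the threshold, but whose high-fat groups did not overlap, are given as values. Tmem267, a transmembrane protein gene, read 9.25, 9.37 and 9.53 in wild type and 7.24, 7.40, 8.18 and 7.03 in knockout. Its difference was -1.92 ± 0.32 (adjusted p = 0.066), and it was -1.13 ± 0.34 on chow. Ksr2, a scaffold of the RAF and MAP kinase pathway known for its role in energy balance, read 6.21, 5.81 and 5.99 against 5.43, 5.34, 5.41 and 5.38 (difference -0.61 ± 0.10, adjusted p = 0.066), and differed by 0.06 ± 0.11 on chow. The remaining lower genes of this kind were Mblac1 (-0.62), Fis1, a mitochondrial fission protein (-0.37), the trafficking adaptor Gipc1 (-0.41) and Bbox1, the last enzyme of carnitine synthesis (-0.43).

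Among the higher values, Sv2c, a synaptic vesicle glycoprotein, read 3.88, 4.06 and 3.71 in wild type and 4.68, 4.57, 4.45 and 4.60 in knockout (difference 0.69 ± 0.11, adjusted p = 0.0519). Comp, a matrix protein of cartilage and tendon, differed by 1.07 ± 0.23, with a wide spread in wild type (4.89, 5.49 and 6.15, against 6.30, 6.66, 6.73 and 6.63 in knockout, adjusted p = 0.272). Btc, the EGF-receptor ligand betacellulin, differed by 0.56 ± 0.12 and Ntrk2, the BDNF receptor TrkB, by 0.56 ± 0.12. The ubiquitin ligase Rnf125 (0.65), Btbd11 (0.56), the chemerin receptor Gpr1 (0.40), the oxysterol hydroxylase Cyp39a1 (0.37), Cnpy4 (0.34), haptoglobin (Hp, 0.32) and the nuclear cofactor Trim24 (0.31) completed the set, with adjusted p from 0.0792 to 0.235.

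The genes of the ATP and inflammasome route were then taken in order. P2rx4, the P2X channel closest in sequence to P2X7 and the next measured gene to it on the chromosome, read 11.26, 10.97 and 11.31 in wild-type and 10.52, 10.75, 10.72 and 10.63 in knockout fat on high-fat diet. The P2rx4 groups did not overlap, and the difference of -0.52 ± 0.09 did not pass (adjusted p = 0.0688). On chow the P2rx4 difference was 0.05 ± 0.09. Without wild-type replicate 2 it was -0.63 ± 0.08 and passed (adjusted p = 0.00387). Panx1, the channel through which cells release ATP, read 7.59, 6.94 and 7.84 in wild type and 6.75, 6.98, 6.88 and 6.89 in knockout. Wild-type replicate 2 lay among the knockout arrays for Panx1, and the difference of -0.58 ± 0.16 (adjusted p = 0.522) became -0.84 ± 0.10 without it (adjusted p = 0.00234). Of 21 measured genes of purinergic signalling, 0 passed, 12 lay above 0 and 9 below, with a median of 0.03 against -0.01 over all genes. P2rx5 stood at 0.42 ± 0.18, and Nt5e (CD73), which makes adenosine, at 0.53 ± 0.26.

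None of the inflammasome genes passed. Nlrp3 read 5.63, 5.19 and 5.50 in wild type and 5.27, 5.40, 5.25 and 5.14 in knockout, with a difference of -0.17 ± 0.13 and a 95% interval of -0.45 to 0.10 (adjusted p = 0.808). Pycard differed by -0.08 ± 0.14 (interval -0.39 to 0.23) and Casp1 by 0.10 ± 0.13 (interval -0.18 to 0.38). Among the cytokines, Il1b differed by -0.08 ± 0.16 (interval -0.42 to 0.25) and Il18 by -0.12 ± 0.10 (interval -0.34 to 0.10). In all of these the groups overlapped. Of the 18 measured inflammasome genes, 14 lay below 0, with a median of -0.09 (-0.22 without wild-type replicate 2, where 0 passed). The lowest value in this list was that of Naip6, a sensor of bacterial flagellin, at -0.30 ± 0.14, and Txnip, a thioredoxin-binding protein linked to NLRP3, was the member of smallest p, at 0.12 ± 0.05 (adjusted p = 0.632). Of 15 genes of the IL-1 family, 0 passed and the median was -0.05. Il33 stood at 0.22 ± 0.16 and the receptor antagonist Il1rn at -0.31 ± 0.24.

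Among cytokines and chemokines, Tnf, the macrophage cytokine, read 7.95, 7.36 and 8.03 in wild type and 7.11, 7.38, 7.31 and 7.13 in knockout (difference -0.55 ± 0.18, adjusted p = 0.595). Wild-type replicate 2 again lay within the knockout range for Tnf, and without it the difference was -0.76 ± 0.16 (adjusted p = 0.0508). Ccl2, the monocyte chemoattractant, stood at -0.40 ± 0.20 and the receptor Cxcr4 at 0.41 ± 0.14. Of the 26 measured members, 0 passed and the median was -0.05. In the lysosome list 17 of 18 genes lay below 0, with a median of -0.12 (-0.22 without wild-type replicate 2). Its member of smallest p, the protease gene Ctsz, read 12.20, 12.14 and 12.13 in wild type and 11.93, 11.90, 11.96 and 11.87 in knockout, a difference of -0.24 ± 0.05 that did not pass (adjusted p = 0.278). Of 9 genes of MHC class II presentation 8 lay below 0 (median -0.19), led by the master regulator Ciita at -0.36 ± 0.13.

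In lists of metabolism the median was 0.11 for 22 genes of branched-chain amino acid breakdown, 0.12 for 17 genes of fatty acid oxidation, 0.06 for 22 genes of de novo lipogenesis, 0.09 for 16 genes of insulin signalling and 0.08 for 15 genes of lipolysis and the lipid droplet, and 0 members of these lists passed. These medians turned on single wild-type arrays. Without wild-type replicate 1 they were, in the same order, 0.031, -0.016, -0.033, 0.0063 and 0.0037, and without replicate 2 they were 0.25, 0.26, 0.25, 0.18 and 0.21. Without replicate 2, Pde3b and Plin4 of these lists were called higher and Ptpn1, a phosphatase that acts on the insulin receptor, was called lower. Scd1, the desaturase that makes monounsaturated fatty acids, read 12.77, 12.90 and 12.90 in wild type and 12.98, 13.02, 13.02 and 13.04 in knockout (0.16 ± 0.04, adjusted p = 0.521). In the clock list, Npas2 stood at -0.54 ± 0.17 while Per2, Per1 and Per3 stood at 0.47 ± 0.17, 0.40 ± 0.16 and 0.31 ± 0.14. Npas2 activates transcription in the clock and the Per genes repress it. None of the 16 clock genes passed over all arrays. Without wild-type replicate 2 Npas2 differed by -0.79 ± 0.13 and passed (adjusted p = 0.0166), and it alone did among the clock genes.

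**Figure D3:**
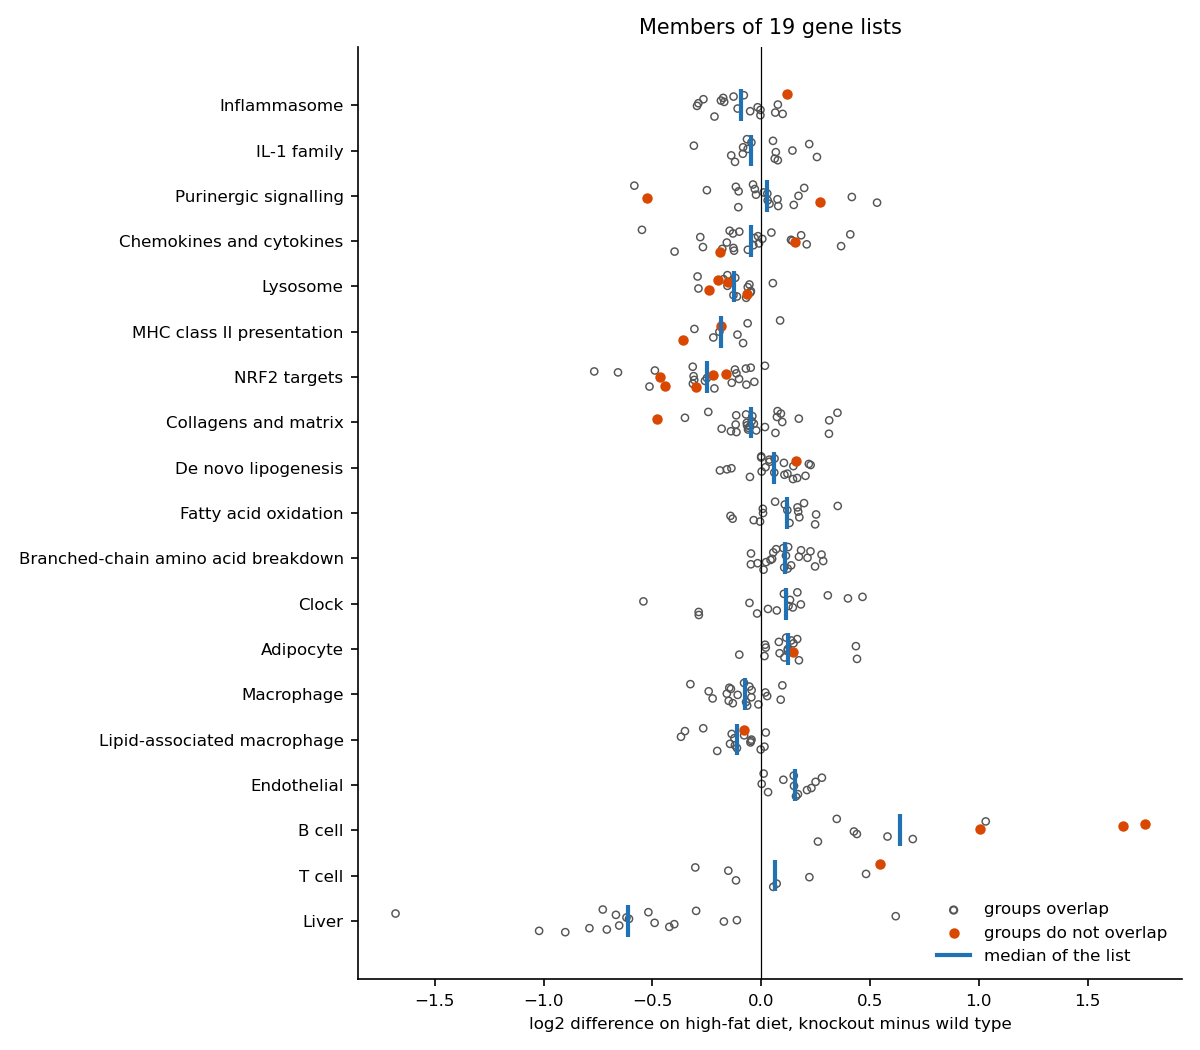
Log2 difference on high-fat diet between knockout and wild type (horizontal axis) for each measured member of 19 gene lists; filled points are genes whose groups do not overlap and bars are list medians. Medians lie within 0.25 of 0 except for the B cell list (0.64) and the liver list (-0.61), and no point shown passed the threshold.

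Lists of cell type markers described what else the tissue held. Of 20 macrophage genes, 16 lay below 0, with a median of -0.07, and 15 of 17 genes of lipid-associated macrophages, the cells that gather around dying adipocytes, lay below 0 (median -0.11). Without wild-type replicate 2 these medians were -0.16 and -0.21. Msr1, a scavenger receptor, stood at -0.33 ± 0.19 and Trem2, the lipid sensor that defines the lipid-associated state, at -0.27 ± 0.21. Of 17 adipocyte genes 16 lay above 0 (median 0.12), and all 12 endothelial genes did (median 0.16). Without wild-type replicate 1 the adipocyte median was 0.026, with 12 of 17 above 0, and the endothelial median was -0.03. Without wild-type replicate 2 they were 0.21 and 0.35. Agt, the precursor of angiotensin, stood at 0.44 ± 0.12 and Nnat at 0.44 ± 0.14. None of the genes of these 4 lists passed over all arrays. Without wild-type replicate 2 Nnat (0.66 ± 0.10, adjusted p = 0.0104) and the endothelial adhesion gene Esam (0.38 ± 0.08, adjusted p = 0.0484) did. Mean log2 values over the macrophage list were 10.04, 9.73 and 10.06 in the wild-type arrays and 9.72, 9.96, 9.91 and 9.85 in the knockout arrays, so the groups overlapped through wild-type replicate 2.

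The B cell list had the largest median among those above 0. All 10 measured members were above 0, with a median of 0.64. Jchain, which links antibody chains in plasma cells, read 6.58, 6.30 and 6.86 in wild type and 7.44, 9.50, 8.15 and 8.29 in knockout, without overlap (difference 1.76 ± 0.41, adjusted p = 0.361). Igkc, the kappa light chain, read 5.28, 6.28 and 6.44 against 7.28, 8.73, 7.75 and 6.89 (1.66 ± 0.49, adjusted p = 0.577), and Ighm, the IgM heavy chain, differed by 1.01 ± 0.45. Knockout replicate 2 was the highest array for each of these genes and for the list mean, at 7.31 against 5.59 to 5.93 in the other knockout and 5.21 to 5.51 in the wild-type arrays. Without it the median of the list was 0.22. On chow the B cell median was -0.11. The T cell list mean was also highest in knockout replicate 2, at 6.09 against 4.99 to 5.76 in the other high-fat arrays, and the part of that sample in the B cell values is given by the median without it. The T cell median was 0.06, with 5 of 8 genes above 0, but it was -0.09 without knockout replicate 2 and -0.10 without wild-type replicate 1, each with 2 of 8 above 0. Themis, a regulator of T cell receptor signalling, read 4.39, 4.92 and 4.78 in wild type and 5.29, 5.27, 5.31 and 5.11 in knockout (0.55 ± 0.14, adjusted p = 0.444).

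Liver-rich transcripts went the other way, with 17 of 18 below 0 and a median of -0.61. Their excess lay in wild-type replicate 2, where Serpina1b, an alpha-1-antitrypsin gene with close copies, read 10.54, against 6.04 and 5.78 in the other wild-type arrays and 6.37, 5.92, 5.55 and 5.26 in knockout. Without that array the median was -0.10. Rnase2a, an eosinophil ribonuclease with close copies, read 5.92, 8.81 and 4.47 in wild type and 3.96, 3.43, 3.81 and 3.44 in knockout (-2.74 ± 1.04, adjusted p = 0.632). The eosinophil list as a whole did not share this difference. Of its 6 measured genes 2 lay above 0 and 4 below, with a median of -0.04 (0.04 without wild-type replicate 2). Markers of epididymis, testis and skeletal muscle had medians of -0.02, -0.04 and -0.02.

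The position of genes relative to P2rx7 was examined because the targeted allele came from another strain, so that stretches of chromosome around it can differ between the groups along with P2X7. Of the 200 measured genes within 100 places of P2rx7 on chromosome 5, 1 passed on high-fat diet, Nipsnap2, 70 places away. In 16 of them (8%) every knockout array was below every wild-type array, and in 4 (2%) above, against 4.23% and 2.41% of the other 18619 genes. The lower ones included P2rx4, Ksr2, Cct6a (-0.27), Erp29 (-0.27) and Wsb2 (-0.22). On chow these genes differed, in the same order, by 0.05, 0.06, -0.13, -0.13 and 0.18. Without overlap on chow, Cct6a and Erp29 were lower in the knockout and Wsb2 was higher. Chromosome 5 held 16 of the 60 genes of smallest p (26.7%) and 5.73% of the genes tested. A430033K04Rik lay 201 places from P2rx7. Chromosome 14 held 7 of the 60 (11.7%), among them Lrmda, Entpd4 and the olfactory receptors, and 3.50% of the genes tested. It also held 3 of the 8 genes that passed. P2X7 loss and other alleles carried with the knockout strain cannot be told apart in this design.

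**Figure D4:**
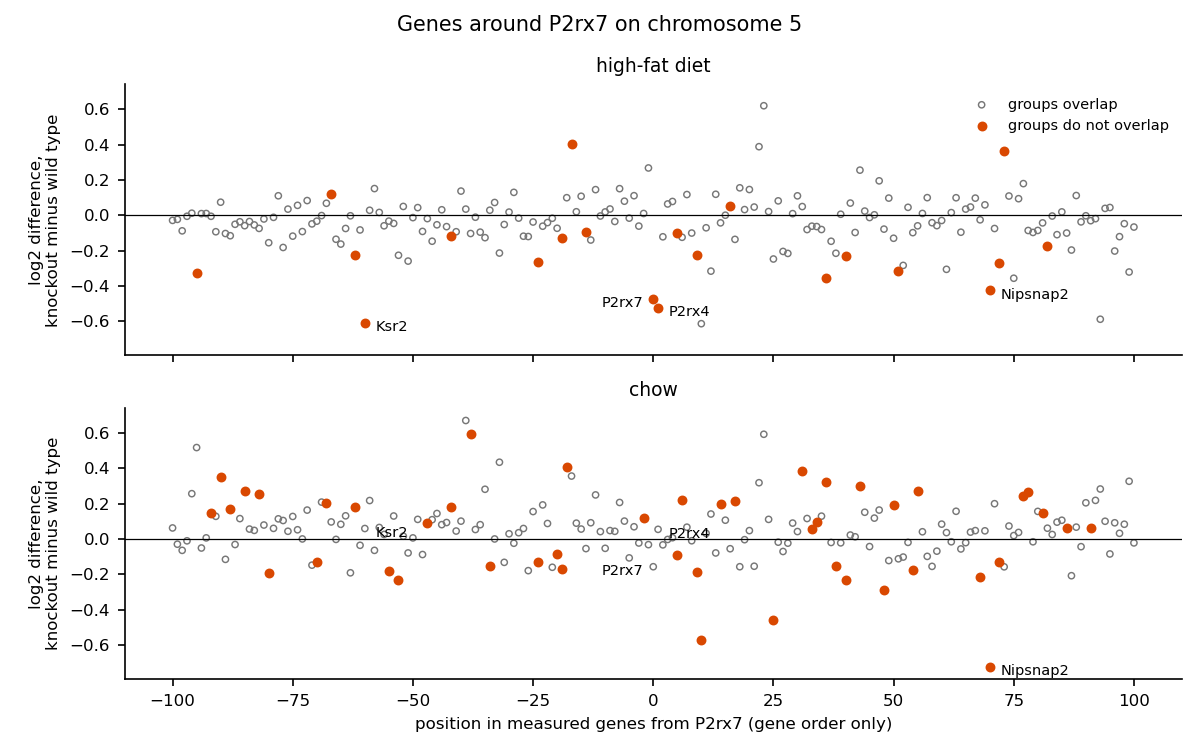
Log2 difference between knockout and wild type (vertical axis) on high-fat diet and on chow for the measured genes up to 100 places either side of P2rx7 in chromosome order (horizontal axis); filled points are genes whose groups do not overlap. On high-fat diet 16 neighbours are lower without overlap and 4 higher, and Nipsnap2 is low on both diets.

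Wild-type replicate 2 on high-fat diet decided how many genes could be called. Without it, 63 genes were higher in the knockout (0.335%) and 114 lower (0.606%), all 8 genes of the full comparison among them. This leaves 2 wild-type arrays, and the array was singled out after its effect was seen, so the further genes are described and not counted as findings of the full design. All 177 genes kept the sign they had over the 7 arrays. The comparison that selected them used all of these arrays but replicate 2, so the shared sign is no separate evidence. For 58 of them the groups did not overlap even with replicate 2 included. Over all genes tested the groups did not overlap for 2.41% that were higher in the knockout and 4.27% that were lower. The selection set the other wild-type arrays against the knockout arrays, which favours separation, so the 58 are no separate evidence either. For 95 of the 177 genes replicate 2 lay within the range of the knockout arrays, as it did for 55.1% of all genes.

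Of the genes of glutathione synthesis and the thioredoxin system, Gclm, Gclc and Txnrd1 were called lower without replicate 2. They were the 3 called of a list of 23 genes of glutathione and oxidant defence, in which 11 lay above 0 and 12 below without that array (median -0.06, and -0.09 with it). NRF2 is a transcription factor that is freed from its inhibitor KEAP1 under oxidative stress and switches on glutathione synthesis, the thioredoxin system and detoxifying enzymes. It binds a motif called the antioxidant response element. A list of 26 NRF2 targets was written after this was seen and is described without a test. Over all 7 arrays 24 of its 25 measured members lay below 0, with a median of -0.25 and 0 passing. Without replicate 2 the median was -0.38, and 10 members were called lower.

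The stretch around the motif is shown, as a description of sequence, for 3 of the 5 NRF2 targets that carry it before the start of the gene. Abcc4 and Ugdh carry it there too, were not called, and are not shown. The motif searched was TGACNNNGC, or GCNNNGTCA on the other strand, within 300 bases around each start site in RefSeq (GRCm38.p6), from 250 bases before it to 50 after. Capitals mark the motif. The first 2 genes were called lower without replicate 2, and Prdx1, a peroxiredoxin, was not.
Gclm, chr3:122245393-122245461, plus strand, motif 134 bases before the start: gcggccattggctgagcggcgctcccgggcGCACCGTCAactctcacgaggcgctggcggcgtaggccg
Txnrd1, chr10:82859084-82859152, plus strand, motif 92 bases before the start: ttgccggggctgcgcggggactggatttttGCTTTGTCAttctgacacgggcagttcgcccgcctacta
Prdx1, chr4:116685436-116685504, plus strand, motif 133 bases before the start: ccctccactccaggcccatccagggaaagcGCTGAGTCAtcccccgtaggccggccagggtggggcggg
The motif was in the window of 7 of the 21 list members with one (33.3%), in 3 of 8 of those called lower (37.5%), Srxn1 being the third, and in 15.4% of 14739 tested genes. A match describes the sequence only. The list was made of NRF2 targets, so its share of motifs tells nothing about the knockout, and NRF2 binding was not tested.

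Gclm, the modifier subunit of the enzyme that starts glutathione synthesis, read 10.40, 9.81 and 10.50 in wild type and 9.93, 9.83, 9.81 and 10.14 in knockout. Wild-type replicates 1 and 3 were above every knockout array, and replicate 2 was level with the lowest. The difference was -0.31 ± 0.14 over all arrays (adjusted p = 0.668) and -0.52 ± 0.10 without replicate 2 (adjusted p = 0.028). Gclc, its catalytic subunit, went from -0.26 ± 0.10 to -0.41 ± 0.08 (adjusted p = 0.031). Slc7a11, which imports the cystine that glutathione is made from, read 6.37, 4.61 and 6.09 in wild type and 4.69, 4.94, 4.94 and 5.12 in knockout, the widest gap between wild-type arrays in the list.

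The thioredoxin reductase Txnrd1 read 9.41, 8.79 and 9.55 in wild type and 8.80, 8.87, 8.93 and 9.14 in knockout. Srxn1, which repairs peroxiredoxins, read 9.83, 8.78 and 9.77 against 8.86, 9.06, 8.94 and 9.01. For both, replicate 2 was the lowest of the 7 arrays. Blvrb, a biliverdin reductase of haem breakdown, differed from these in that its groups did not overlap, at 11.15, 10.75 and 11.23 against 10.58, 10.66, 10.65 and 10.52 (-0.44 ± 0.09, adjusted p = 0.198, and -0.59 ± 0.06, adjusted p = 0.000858 without replicate 2). Hmox1, haem oxygenase 1, did not overlap either, at 11.14, 10.47 and 10.80 against 10.25, 10.34, 10.36 and 10.40, and was not called with or without replicate 2 (adjusted p = 0.595 and 0.0641). Ptgr1, Akr1b8, Abcc1 and Cbr3, which reduce or export reactive compounds, were the others called lower without it. On chow the median of the list was 0.03.

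**Figure D5:**
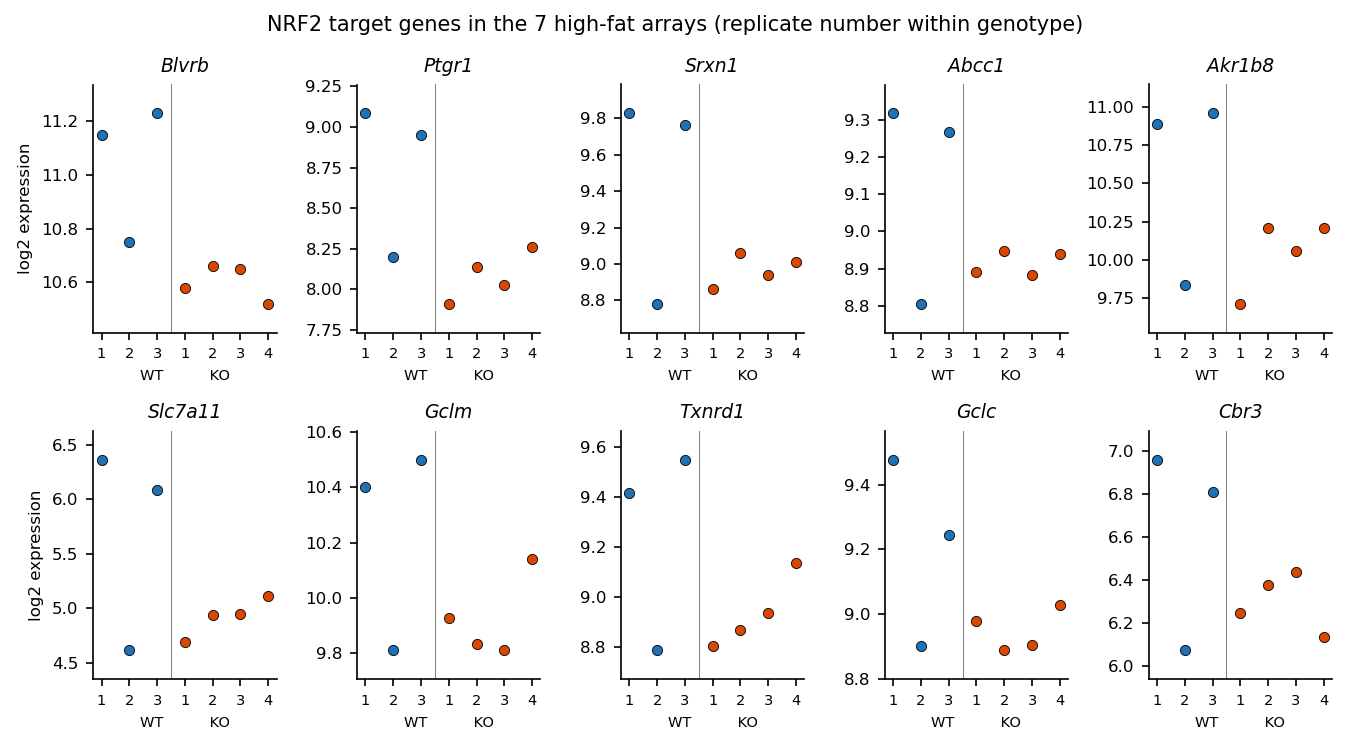
Log2 expression (vertical axis, a separate range for each gene) of the 10 NRF2 targets called lower without wild-type replicate 2, in the 7 high-fat arrays by replicate number (horizontal axis; wild type left, knockout right). The genes were selected by wild-type replicates 1 and 3 against the knockout arrays, so these 2 lie above all 4 knockout arrays by selection. Replicate 2 lies below the highest knockout array for all of them but Blvrb. The other measured members of the list are not shown.

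Clec4d, a C-type lectin receptor of phagocytes, was also called lower without replicate 2. It read 8.51, 6.06 and 8.41 in wild type and 5.87, 6.94, 6.77 and 7.18 in knockout (-0.97 ± 0.50 over all arrays, -1.77 ± 0.32 without it). Without replicate 2 Cd5l, a protein secreted by macrophages, differed by -1.47 ± 0.27 and Ncf1, a subunit of the phagocyte NADPH oxidase, by -0.99 ± 0.13. The integrin Itgb2 differed by -0.75 ± 0.16, the urokinase receptor Plaur by -0.83 ± 0.10 and the glucose transporter Slc2a1 by -0.76 ± 0.09. Over all arrays these differences were, in the same order, -0.87 ± 0.39, -0.59 ± 0.24, -0.45 ± 0.20, -0.49 ± 0.20 and -0.53 ± 0.14. Ncf1 lies 93 places from P2rx7 on chromosome 5, within the stretch examined above. For the coagulation factors F7 and F10 the groups did not overlap over all 7 arrays. F7 read 9.61, 8.39 and 8.94 against 8.15, 8.19, 8.16 and 8.02, and F10 read 8.38, 7.28 and 7.78 against 7.20, 7.13, 7.23 and 7.26.

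Plin4, a coat protein of lipid droplets in adipocytes, was among the genes called higher without replicate 2. It read 10.69, 11.34 and 10.98 in wild type and 11.53, 11.22, 11.46 and 11.37 in knockout (0.39 ± 0.12 over all arrays, 0.56 ± 0.09 without it). Without replicate 2 the phosphodiesterase Pde3b, through which insulin restrains lipolysis, differed by 0.45 ± 0.08 and the succinate receptor Sucnr1 by 0.71 ± 0.13. The short-chain fatty acid receptor Ffar2 differed by 0.60 ± 0.12, the capillary lipase anchor Gpihbp1 by 0.54 ± 0.11 and the epoxide hydrolase Ephx2 by 0.69 ± 0.12. Over all arrays these differences were, in the same order, 0.22 ± 0.14, 0.40 ± 0.20, 0.32 ± 0.18, 0.26 ± 0.17 and 0.36 ± 0.20. For Pde3b, Ffar2, Gpihbp1 and Ephx2 replicate 2 lay above every knockout array. Trdn (1.27 ± 0.21), Jph1 (0.69 ± 0.12) and Ryr2 (0.55 ± 0.11), whose products act in calcium release in muscle, were also called without it. Over all arrays Trdn differed by 0.85 ± 0.28, Jph1 by 0.43 ± 0.17 and Ryr2 by 0.42 ± 0.11. Of these, the groups of Ryr2 alone did not overlap over all 7 arrays, at 5.12, 5.57 and 5.24 against 5.72, 5.62, 5.84 and 5.71.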

How the data were processed

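The authors deposited log2 values for every probe set of each array. Per the submitters' processing notes these were made with RMA, a robust averaging over probes, version not given in the sources used here. Values lay between 1.70 and 13.86 and were not normalised again. Of 35556 probe sets, 21218 named a single gene, 1881 several and 12457 none in the platform annotation. The probe set of highest mean stood for each gene (18820 genes, of which 18787 matched the RefSeq table of GRCm38.p6 by Entrez ID). Limma 3.58.1 (R 4.3.3) fitted 1 mean per group over all 13 arrays, with an intensity trend in the variance. Values after a plus-minus sign are its standard errors (SE), and adjusted p values are Benjamini-Hochberg over all genes of a contrast. The script was tested on simulated arrays. The number of arrays limits the precision.

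The text names P2rx7, Nlrp3, Pycard, Casp1, Il1b and Il18. In each direction it names up to 12 passing genes by size, filled with the smallest p among genes whose groups do not overlap. Of each of 42 lists it may name the 2 members of smallest p where none passed. Predicted, small RNA and olfactory genes are outside the rule. Genes beyond it were chosen after their values were seen: A430033K04Rik, the Olfr genes, further list members and those described without wild-type replicate 2. Comparison and lists were chosen with earlier results of these data known. Besides the NRF2 list, 687 list entries were looked up and 70 were not measured here. No set was tested. As alternatives, the scaling, the variance model, array weights, covariates, the choice of probe sets, a filter on dim genes, a minimum fold, the high-fat arrays alone, a replicate block and the removal of single arrays were tried.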

Additional observations from a re-analysis of the deposited data

Results flagged for a closer look

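Within the 4 knockout arrays on high-fat diet, a single array stood far from the other 3 for 8 of 117 named genes, by the gap to its nearest neighbour over the range of the group. Chance alone sets an array apart in this way in about 1 of 20 groups. Knockout replicate 3 was highest for Agt, at 9.325 against 9.079 to 9.104, and for Il18rap, at 4.638 while the others all read 4.407. Replicate 2 was highest for Slc2a1, at 9.143 against 8.97 to 8.998, and for Cd4, at 6.585 against 5.388 to 5.522. Replicate 4 was highest for Txnip, at 12.36 against 12.25 to 12.26. Replicate 1 was highest for Myh2, at 5.005, and lowest for Msr1, at 9.13 against 9.514 to 9.539, and for Klre1, at 2.603.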

How the results depend on the processing

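The main counts were 2 genes higher, 6 lower and 0 passing the interaction. Counts of higher genes were 1 with arrays centred on their medians or every probe set tested. They were 0 with the 7 high-fat arrays alone or a minimum 1.2-fold, and 4 with a mesothelial score as covariate. The count of higher genes was also 0 with dim genes left out, but that filter removed Camk2b and Olfr734 themselves, so they were not retested. Counts of lower genes were 2 with the high-fat arrays alone or the 1.2-fold minimum and 11 with a liver score as covariate. The interaction called 2 genes without the intensity trend, 1 with array weights and 4 with the mesothelial score. Leaving out each array in turn gave 1 to 63 higher, 4 to 114 lower and 0 to 106 interaction calls, with the upper ends all from wild-type high-fat replicate 2. The replicate block gave 0 higher, 0 lower and 8 of 8 calls lost. Same-numbered arrays of different groups deviated together at r from -0.30 to 0.22, and other pairs at r from -0.41 to 0.53. With so few arrays in each group, these values cannot decide whether the numbers pair the samples. Signs turned for Pycard (0.028 without WT_HFD replicate 1; range over single arrays left out -0.26 to 0.028), Casp1 (-0.072 with the liver score, -0.041 without WT_HFD replicate 2; range -0.041 to 0.23) and Il1b (0.019 without WT_HFD replicate 3; range -0.25 to 0.019), none of which passed in any of these settings. The cause of these shifts was not tested, except that fewer arrays or genes entered some of them. Signal over background was not used, so low-reading genes such as Olfr734 have no detection limit here.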
